A study of Homo sapiens with 6 samples.

Results

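Long intergenic noncoding RNA (lincRNA) genes that were expressed in the human breast cancer line MDA-MB-231 or in Pep2-E3, a line that the labels place on the MDA-MB-231 background, were compared between both lines. Members were the genes that GENCODE release 29 types as lincRNA and whose mean over all 6 libraries was at least 1 FPKM (fragments scaled to exon length and to library depth). Names starting with SNHG, and GAS5, were left out. This gave 299 genes of 2927 lincRNA genes in the deposited tables, which list 30099 genes. The members were thus chosen by their level over all 6 libraries, and their levels are given as a description. The difference between the lines did not enter the rule.

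The study holds 3 libraries of parental MDA-MB-231 cells, labelled as control, and 3 libraries of Pep2-E3 cells, which the labels call both Pep2-E3 and Pep-E3. The labels do not say what Pep2-E3 carries or how it was made, whether it is a single clone, or whether each library had its own culture. The p-values therefore rest on the scatter of 3 libraries a line, part or all of which may be technical. Total RNA was extracted from frozen cells, and the NEBNext Ultra kit used for the libraries does not mark strand. Reads of a lincRNA gene and of a gene on the opposite strand of the same bases can therefore not be told apart. Fewer cells of a type and less RNA per cell cannot be told apart either.

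LincRNAs are transcripts without a long reading frame, made by RNA polymerase II outside protein-coding genes and often spliced and polyadenylated. Some build nuclear bodies, as NEAT1 does for paraspeckles, some bind and titrate proteins, as NORAD does for Pumilio, and some serve as precursors from which Drosha and Dicer cut microRNAs. Others act on neighbouring genes or have no known function. They are commonly less abundant than messenger RNAs and more restricted to certain cell types.

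Depth was 17154511 to 18206694 fragments per library, and the members took 0.296% to 0.337% of them. VIM, CD44, AXL and CAV1, markers of this mesenchymal-like line, lay between 59.3 and 268 FPKM in every library, but SPARC, listed with them, did not exceed 0.201 FPKM. CDH1, ESR1 and PGR did not exceed 0.199 FPKM, EPCAM lay at 1.93 to 2.90 FPKM and ERBB2 at 10.6 to 12.4 FPKM. Of the markers of other cells, PTPRC, PECAM1, CDH5, PDGFRA and ALB did not exceed 0.162 FPKM, and COL1A1 lay at 1.11 to 1.39 FPKM. Pep2-E3 replicate 1 stood apart from the other Pep2-E3 libraries. Over the members, the mean chi-square per gene between libraries of a group was 6.40 and 7.58 for pairs with that library, 1.92 for the other Pep2-E3 pair and 1.93 to 2.12 for the parental pairs.

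Members of either direction were about equally many. In the limma-trend fit of 14235 genes on log2(FPKM + 1), 44 members rose and 46 fell in Pep2-E3 at an adjusted p under 0.05. That is 30.1% of the 299 members, against 30.8% of all tested genes, 14.6% being higher and 16.2% lower. It is also near the 33.0% of all genes with a mean of at least 1 FPKM and the 34.2% of protein-coding genes at that level. The median log2 fold change was -0.03 over the members and -0.02 over all tested genes. The groups did not overlap for 62 members that were higher and 66 that were lower, against 22.8% and 26.0% of all tested genes (48.8% in either direction). Changes that passed the test and reached 1 on the log2 scale were seen in 8 members upward and 9 downward, where the shares of all tested genes were 0.548% and 0.794%. Since 1 of the 8 (LINC01139) and 4 of the 9 (LINC02522, AC026316.2, AC011450.1 and LINC01637) reached the mean of 1 FPKM through the line where they are high alone, nothing is read from that contrast.

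The members were short and sparsely covered. Their median level was 2.07 FPKM, their median exon length 1198 bases and their median coverage 52.0 fragments per library, against 8.07 FPKM, 5153 bases and 766 fragments for protein-coding genes with a mean of at least 1 FPKM. Coverage moved with the number of calls. Among the 100 members with the most fragments (90.0 to 8398 per library), 46.0% passed, and among the 100 with the fewest (3.17 to 27.3), 18.0% passed. Median GC content was 47.7% for the members and 47.9% for the protein-coding genes. The members near the limit of the rule were AL049836.1, LINC01089, LINC01637, AC093227.1 and FAM111A-DT just inside, at means of 1.00 to 1.02 FPKM, and TIMM23B-AGAP6, CAHM, LINC00997, AC015712.1 and LINC01710 just outside, at 0.991 to 0.997 FPKM. Of those inside, AL049836.1 is a member through Pep2-E3 alone (parental mean 0.927 FPKM). LINC01089, LINC01637, AC093227.1 and FAM111A-DT are members through the parental line alone. There were 19 members with a mean under 1 FPKM in the parental line and 26 with a mean under 1 FPKM in Pep2-E3, of which 8 and 11 passed. Since they entered through the other line, their means had to differ, by an amount that the rule does not set. Members of this kind are included in the counts below and are marked where first named in the main text.

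**Figure D1:**
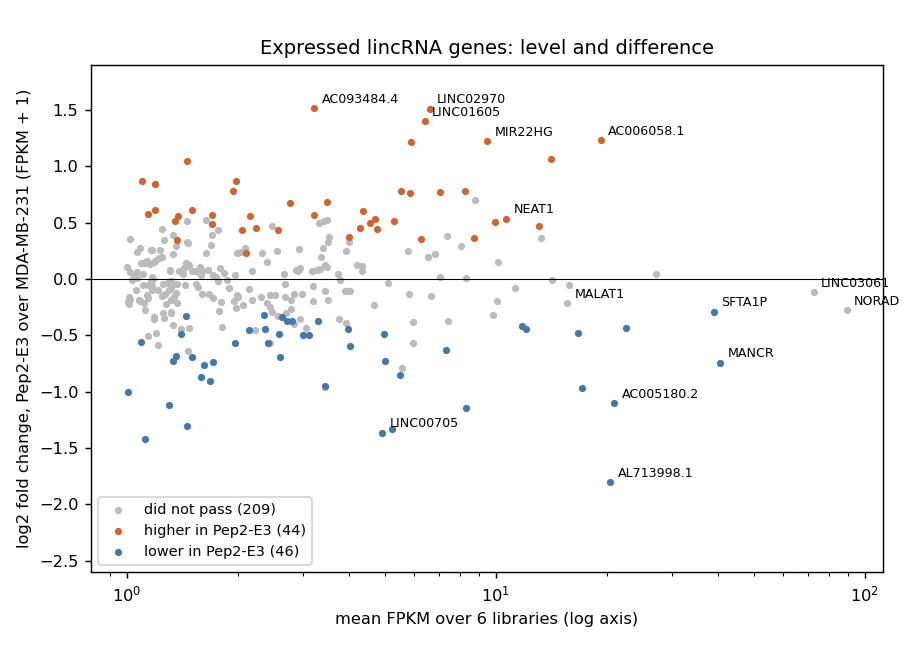
Each point is 1 of the 299 lincRNA genes, with its mean FPKM over 6 libraries on a log axis and its log2 fold change (Pep2-E3 over MDA-MB-231, on log2(FPKM + 1)). The 44 genes that rose and the 46 that fell are coloured, and AL713998.1 lies lowest at -1.80 while AC093484.4 and LINC02970 lie highest at 1.51.

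NORAD, the most abundant member, is a cytoplasmic RNA that binds Pumilio proteins and is known for its part in keeping chromosome number stable. It is encoded by a single exon at chr20:36045622-36050960 (GRCh38, minus strand). Its 5339-base transcript holds 15 matches to the Pumilio recognition element TGTANATA. NEAT1 came next with 6, and 268 members had none. A stretch of 120 bases of the transcript, bases 1134 to 1253, is shown because it holds 2 of these matches, given in capitals.
NORAD: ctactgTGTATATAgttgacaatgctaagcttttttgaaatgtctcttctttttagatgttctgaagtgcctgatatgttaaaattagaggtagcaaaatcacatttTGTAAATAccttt

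NORAD measured 99.4, 97.3 and 94.2 FPKM in the parental libraries and 59.0, 88.7 and 96.9 FPKM in the Pep2-E3 libraries. Pep2-E3 replicate 1 was the lowest, and the groups overlapped. The log2 fold change was -0.28 ± 0.17 (SE, limma adjusted p = 0.258), and -0.06 without that library. NORAD took 10.6% of all member fragments in Pep2-E3 replicate 1 and 14.3% to 15.9% in the other libraries. Of its bases, read as 50-base words, 35.3% also occur in other genes, OVCH1-AS1 sharing the most, so its count depends on how such reads were assigned. PUM2, a Pumilio protein, measured 19.8 ± 0.372 and 16.3 ± 3.28 FPKM and did not pass the test (SD, n = 3 each; limma adjusted p = 0.148).

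Of the members known from nuclear bodies, which lie near each other on chromosome 11, NEAT1 rose and MALAT1 did not pass. NEAT1, the scaffold of paraspeckles (chr11:65422774-65445540, plus strand), measured 8.92, 8.49 and 8.09 FPKM in the parental libraries and 11.1, 14.3 and 13.2 FPKM in the Pep2-E3 libraries. Every Pep2-E3 library was above every parental library, with a log2 fold change of 0.54 ± 0.09 (limma adjusted p = 0.00709). MALAT1, an RNA of nuclear speckles (chr11:65497688-65506516, plus strand), measured 17.2, 16.8 and 16.4 FPKM against 12.2, 14.9 and 16.2 FPKM. The groups did not overlap, but Pep2-E3 replicate 3 came close to the parental range, and the log2 fold change of -0.21 ± 0.10 did not pass (limma adjusted p = 0.140). FRMD8, the nearest protein-coding gene of NEAT1, also rose, from 6.01 ± 0.230 to 8.51 ± 0.192 FPKM (log2 fold change 0.44 ± 0.05, limma adjusted p = 0.00207).

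Of 20 tested paraspeckle proteins, 5 rose and 2 fell, with a median log2 fold change of 0.10; of all tested genes 14.6% rose and 16.2% fell. SFPQ, which paraspeckle assembly needs, rose from 48.4 ± 2.19 to 58.0 ± 2.86 FPKM (limma adjusted p = 0.0161), and PSPC1, a related protein, from 12.9 ± 0.465 to 17.1 ± 1.47 FPKM (limma adjusted p = 0.00919). SS18L1 fell from 13.2 ± 0.572 to 9.43 ± 0.362 FPKM and DAZAP1, an RNA-binding protein, from 28.8 ± 1.04 to 24.9 ± 0.174 FPKM (limma adjusted p = 0.00245 and 0.0181). The other 3 that rose were RBM14, HNRNPK and UBAP2L, named after their values were seen.

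The next most abundant members were LINC03061, MANCR, SFTA1P and LINC00973. LINC03061 measured 75.1, 76.5 and 75.5 FPKM in the parental line and 70.1, 66.8 and 72.3 FPKM in Pep2-E3. Its groups did not overlap, but the change of -0.12 ± 0.05 missed the threshold (limma adjusted p = 0.0882). LINC00973 measured 28.0, 25.5 and 26.5 FPKM against 26.7, 29.5 and 26.4 FPKM, and its groups overlapped (log2 fold change 0.04 ± 0.06, limma adjusted p = 0.640). SFTA1P, which is named as a surfactant-associated pseudogene, measured 41.4, 43.8 and 43.9 FPKM against 33.9, 36.5 and 34.6 FPKM. Every Pep2-E3 library was lower, by -0.29 ± 0.05 on the log2 scale (limma adjusted p = 0.00694).

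**Figure D2:**
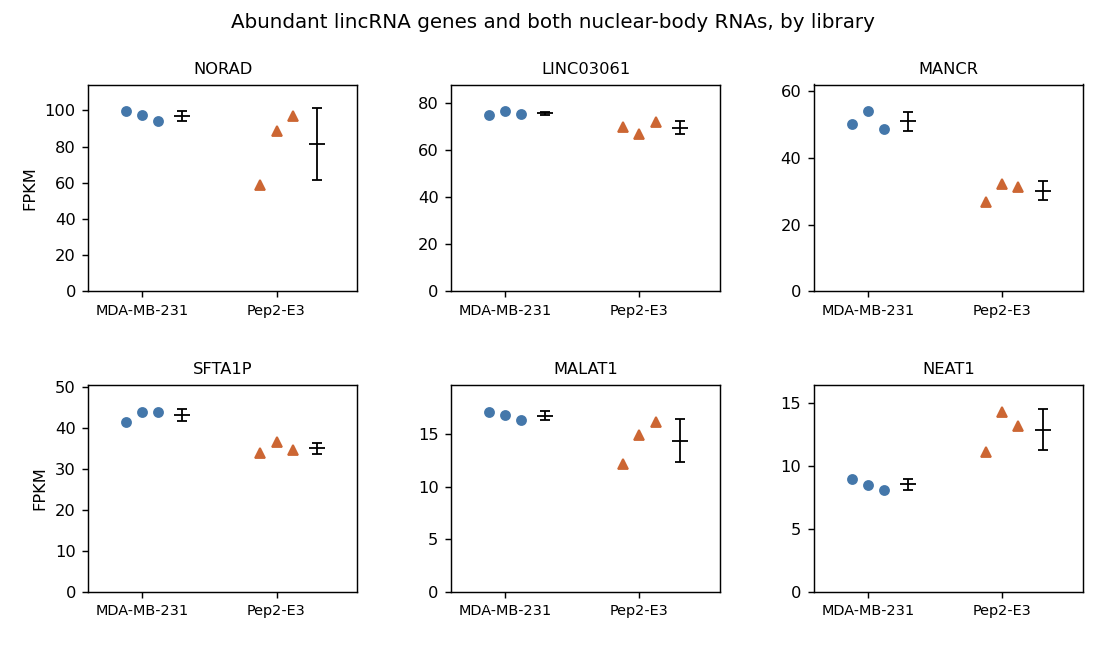
FPKM of 4 abundant lincRNA genes and of MALAT1 and NEAT1 in each library (circles, MDA-MB-231; triangles, Pep2-E3, in order of replicate number), with the mean and SD of 3 libraries beside the points. NORAD in Pep2-E3 replicate 1 lies at 59.0 FPKM, far from the other libraries, and NEAT1 is higher in all 3 Pep2-E3 libraries.

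MANCR, whose name stands for mitotically associated long noncoding RNA and which is known from triple-negative breast cancer cells, fell. It lies at chr10:4650185-4678154 on the minus strand and measured 50.3, 54.0 and 48.7 FPKM in the parental libraries and 27.0, 32.2 and 31.3 FPKM in Pep2-E3. The parental libraries were 1.69-fold higher on the mean, without overlap (log2 fold change -0.74 ± 0.08, limma adjusted p = 0.00140). LINC00705 lies within MANCR on the opposite strand (chr10:4655427-4662419) and shares 12.6% of its exon bases with it. It fell as well, from 7.16, 9.03 and 6.37 FPKM to 1.7, 2.78 and 2.47 FPKM (log2 fold change -1.36 ± 0.16, limma adjusted p = 0.00183). Unstranded reads over the shared bases cannot be assigned to MANCR or LINC00705 by strand.

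AL713998.1 showed the largest fall of all members. The gene at chr6:67887646-67889339 (minus strand) measured 34.1, 31.7 and 31.2 FPKM in the parental line and 8.5, 8.76 and 8.43 FPKM in Pep2-E3. The groups lay far apart, with 3.78-fold more in the parental line (log2 fold change -1.80 ± 0.05, limma adjusted p = 1.53e-05). Its nearest protein-coding gene, ADGRB3, an adhesion receptor known from brain, lies 746028 bases away. ADGRB3 measured 0.342 ± 0.152 and 0.328 ± 0.0398 FPKM and was below the level tested.

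AC015813.1, a single stretch of 5812 bases at chr17:57989039-57994850, measured 12, 12 and 11.5 FPKM against 4.43, 4.70 and 5.34 FPKM. All Pep2-E3 libraries were lower (log2 fold change -1.14 ± 0.07, limma adjusted p = 0.000260). AC015813.1 shares 6.52% of its exon bases with an unnamed protein-coding gene on the same strand, which was not among the tested genes. AC005180.2 and AC005180.1 lie 273 bases apart on opposite strands of chromosome 17, beside the connexin gene GJC1, which did not exceed a mean of 0.117 FPKM in either line. AC005180.2 measured 29, 29.4 and 28.5 FPKM against 13.9, 12.7 and 12.3 FPKM, a fall to 0.447 of the parental mean (limma adjusted p = 0.000173). For AC005180.1 the values were 23.7, 19.6 and 25.6 FPKM against 11.1, 9.36 and 13.4 FPKM, again without overlap (log2 fold change -0.97 ± 0.14, limma adjusted p = 0.00384).

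The other large falls rested on fewer fragments. LINC02522 had 8, 14 and 7 fragments in the parental libraries and 0, 0 and 2 in Pep2-E3 (limma adjusted p = 0.00479), and AC026316.2 had 12, 11 and 12 against 0, 3 and 3 (limma adjusted p = 0.00471). These genes, and AC011450.1, LINC01637 and AL121718.1, had Pep2-E3 means of 0.152 to 0.852 FPKM, so they are members through the parental line alone and had to differ. AC011450.1, of which 21.5% of the exon bases lie opposite the leukocyte tetraspanin gene CD37, fell by 1.12 on the log2 scale, and CD37 itself fell from 1.13 ± 0.219 to 0.424 ± 0.160 FPKM (limma adjusted p = 0.0140). BX255923.1 fell by 1.33, but 49.2% of its 50-base words occur in other genes, PGM5P4-AS1 sharing the most. LINC01637, AC087222.1 and AL121718.1 fell by 1.00, 0.94 and 0.90, with means of 4.0 to 18 fragments in Pep2-E3. AL121718.1 missed the threshold without MDA-MB-231 replicate 2 (limma adjusted p = 0.0561) and without Pep2-E3 replicate 2 (0.0623).

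**Figure D3:**
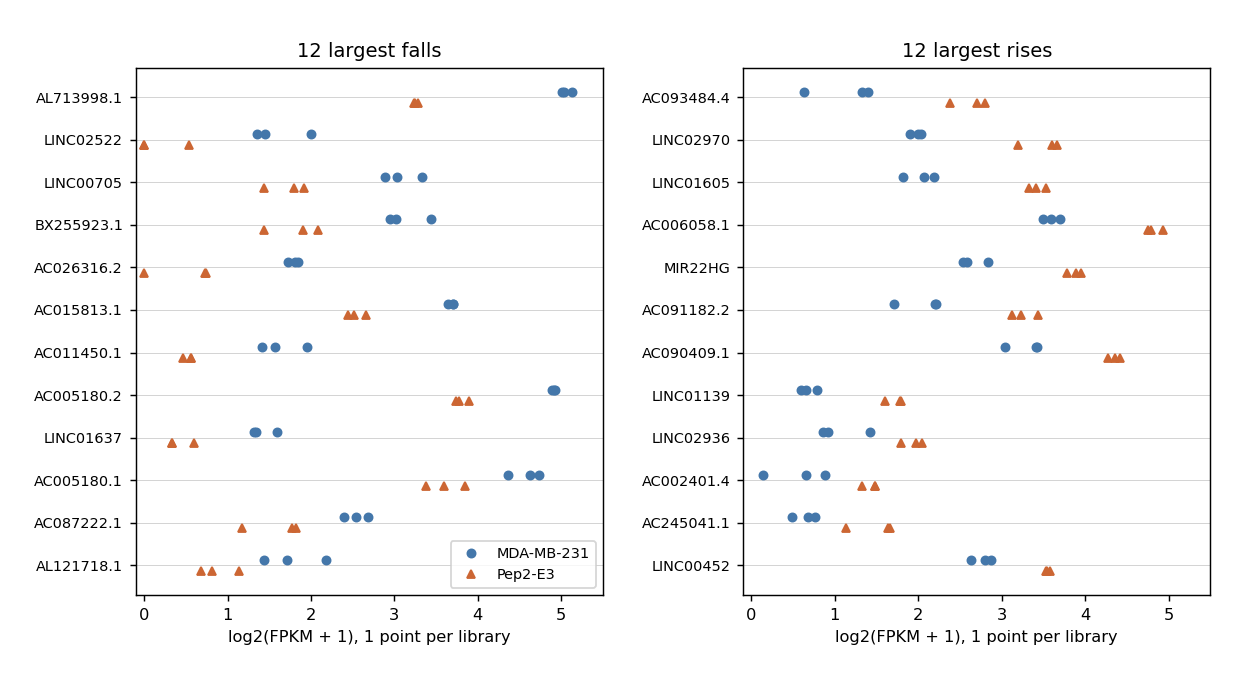
log2(FPKM + 1) of the 12 largest falls and the 12 largest rises among lincRNA genes that passed the test without overlap of the groups, with 1 point per library (circles, MDA-MB-231; triangles, Pep2-E3). AL713998.1 separates by 1.80, while LINC02522, AC026316.2 and AC002401.4 are low genes with wider spread.

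Among the largest rises, AC006058.1 was the most abundant. This single-exon gene at chr3:44117299-44122365 (plus strand) measured 11.9, 11.1 and 10.2 FPKM in the parental line and 26.0, 29.5 and 26.7 FPKM in Pep2-E3. Pep2-E3 was 2.47-fold higher on the mean, without overlap (log2 fold change 1.23 ± 0.07, limma adjusted p = 0.000245). An unnamed gene on the opposite strand covers 3.73% of the exon bases of AC006058.1. That gene, at a mean of 22.1 FPKM over all libraries, also rose (log2 fold change 1.16, limma adjusted p = 0.000632). Unstranded reads over the shared bases cannot be told apart. AC090409.1 rose from 9.69, 7.24 and 9.61 FPKM to 18.4, 19.6 and 20.4 FPKM (log2 fold change 1.06 ± 0.11, limma adjusted p = 0.00133). Its nearest protein-coding gene, the cadherin CDH20, stayed below the level tested, with means of 0.198 and 0.235 FPKM.

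LINC01605 and AC091182.2, which lie 14617 bases apart on the minus strand of chromosome 8, rose together. LINC01605 measured 3.18, 2.53 and 3.56 FPKM against 10.6, 9.62 and 9.04 FPKM (log2 fold change 1.40 ± 0.11, limma adjusted p = 0.000530). AC091182.2 measured 3.62, 3.61 and 2.27 FPKM against 8.37, 7.71 and 9.78 FPKM (log2 fold change 1.22 ± 0.15, limma adjusted p = 0.00232). The nearest protein-coding gene of both, ZNF703, a transcriptional co-repressor known from luminal breast cancer, lies 141568 bases from LINC01605 and rose from 2.47 ± 0.162 to 4.63 ± 0.0352 FPKM (log2 fold change 0.70 ± 0.06, limma adjusted p = 0.000816).

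LINC02970 measured 3.08, 2.99 and 2.74 FPKM against 11.7, 8.14 and 11.2 FPKM (log2 fold change 1.51 ± 0.13, limma adjusted p = 0.000684). Its nearest protein-coding gene, the organic anion transporter SLCO4A1, went the other way, from 0.844 ± 0.256 to 0.354 ± 0.121 FPKM (limma adjusted p = 0.0488). AC093484.4 also rose by 1.51 on the log2 scale, with 3, 9 and 8 fragments in the parental libraries and 22, 29 and 31 in Pep2-E3 (limma adjusted p = 0.00369). LRRC75A, which ends 625 bases from it on the same strand, fell from 1.66 ± 0.124 to 0.986 ± 0.0627 FPKM (limma adjusted p = 0.00900).

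LINC01139, also known as LINK-A and described in triple-negative breast cancer, rose from 0.508, 0.719 and 0.574 FPKM to 2.02, 2.43 and 2.48 FPKM. All 3 Pep2-E3 libraries were higher (log2 fold change 1.05 ± 0.09, limma adjusted p = 0.000868). With a parental mean of 0.60 FPKM it is a member through Pep2-E3 alone and had to differ. LINC00452 rose from 5.82 ± 0.585 to 10.7 ± 0.165 FPKM, while GAS6, the nearest coding gene and the ligand of the receptor AXL, fell from 55.6 ± 1.89 to 42.2 ± 2.10 FPKM (limma adjusted p = 0.000951 and 0.00304). LINC02936, AC002401.4 and AC245041.1 rose by 0.87, 0.87 and 0.84 on the log2 scale from means of 5.33 to 11.3 fragments. AC002401.4 and AC245041.1, with parental means of 0.504 and 0.563 FPKM, are members through Pep2-E3 alone and had to differ. AC002401.4 missed the threshold without Pep2-E3 replicate 2 (limma adjusted p = 0.0516). It lies 3584 bases behind ITGA3 on the same strand, which rose from 96.4 ± 2.13 to 118 ± 7.98 FPKM (limma adjusted p = 0.0117). LINC02936 lies 933 bases behind SLC35F5 on the same strand. SLC35F5 measured 6.09 ± 0.369 and 6.19 ± 1.20 FPKM and did not pass (limma adjusted p = 0.960).

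RefSeq microRNAs lie inside 12 members, of which 3 rose, 2 fell and 7 did not pass, where 30.8% of all tested genes passed. RNA libraries of this kind measure the host transcript, not the mature microRNA. For each hairpin in the hosts that changed, 1 mature microRNA is shown 5′ to 3′ with the seed, bases 2 to 8, in capitals.
hsa-miR-22-3p (exon of MIR22HG): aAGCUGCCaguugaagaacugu
hsa-miR-146a-5p (exon of MIR3142HG): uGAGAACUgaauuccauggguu
hsa-miR-3142 (intron of MIR3142HG): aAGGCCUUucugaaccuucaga
hsa-miR-30a-5p (intron of LINC00472): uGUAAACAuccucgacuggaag
hsa-miR-30c-5p (intron of LINC00472): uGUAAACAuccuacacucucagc
hsa-miR-503-5p (intron of MIR503HG): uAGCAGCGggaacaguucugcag
hsa-miR-4435 (exon of CYTOR, intron of MIR4435-2HG): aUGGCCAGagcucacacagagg

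The pair in LINC00472 shares the seed GUAAACA, and no other seed in that group recurs. MIR22HG (chr17:1711493-1717174, minus strand), the precursor of miR-22, rose most among the hosts. It measured 6.14, 4.78 and 5.0 FPKM in the parental libraries and 14.5, 13.8 and 12.7 FPKM in Pep2-E3. The groups did not overlap, and Pep2-E3 was 2.57-fold higher (log2 fold change 1.22 ± 0.09, limma adjusted p = 0.000538). WDR81, which overlaps the gene on the opposite strand without sharing exon bases, rose from 2.79 ± 0.191 to 3.98 ± 0.351 FPKM (limma adjusted p = 0.0110).

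MIR3142HG (chr5:160438594-160487426, plus strand) carries miR-146a, a microRNA that NF-kB induces and that lowers TRAF6 and IRAK1. Its levels were 5.47, 4.88 and 4.46 FPKM against 7.65, 9.59 and 10.2 FPKM. Every Pep2-E3 library was higher (log2 fold change 0.77 ± 0.11, limma adjusted p = 0.00392). LINC00472, chosen after its values were seen, holds the hairpins of miR-30a and miR-30c-2 and measured 4.13, 3.75 and 3.10 FPKM against 4.59, 6.74 and 5.98 FPKM. The lowest Pep2-E3 library was still above the highest parental library (log2 fold change 0.53 ± 0.14, limma adjusted p = 0.0277).

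MIR503HG (chrX:134543337-134546632, minus strand), the host of miR-503, measured 20.5, 20.4 and 17.9 FPKM against 13.2, 14.7 and 13.3 FPKM. It was lower in every Pep2-E3 library (log2 fold change -0.48 ± 0.07, limma adjusted p = 0.00412). CYTOR, the cytoskeleton regulator RNA (chr2:87454781-87636740, plus strand), measured 3.12, 3.15 and 2.95 FPKM against 1.75, 1.75 and 1.76 FPKM (log2 fold change -0.57 ± 0.06, limma adjusted p = 0.00152). Its near-copy MIR4435-2HG, which also holds a miR-4435 hairpin, measured 6.89, 7.07 and 7.07 FPKM against 7.35, 6.90 and 7.03 FPKM, and its groups overlapped (log2 fold change 0.01 ± 0.05, limma adjusted p = 0.857). Since 45.5% of the 50-base words of MIR4435-2HG, and 19.8% of those of CYTOR, occur in other genes, each being the other's closest match, the division of reads between both is uncertain.

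The hosts that did not pass included MIR222HG, MIR137HG and MIR210HG. MIR222HG, which carries the neighbouring miR-221 and miR-222, measured 6.98, 7.73 and 6.43 FPKM against 4.73, 7.27 and 6.97 FPKM (log2 fold change -0.15 ± 0.15, limma adjusted p = 0.466). MIR137HG measured 11.6 ± 1.02 and 11 ± 1.09 FPKM, and MIR210HG, the host of the hypoxia-induced miR-210, 3.10 ± 0.661 and 2.32 ± 0.410 FPKM (limma adjusted p = 0.552 and 0.150). The seed of miR-221 and miR-222 is the same, as these RefSeq sequences show.
hsa-miR-221-3p (MIR222HG): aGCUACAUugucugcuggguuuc
hsa-miR-222-3p (MIR222HG): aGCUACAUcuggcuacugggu

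**Figure D4:**
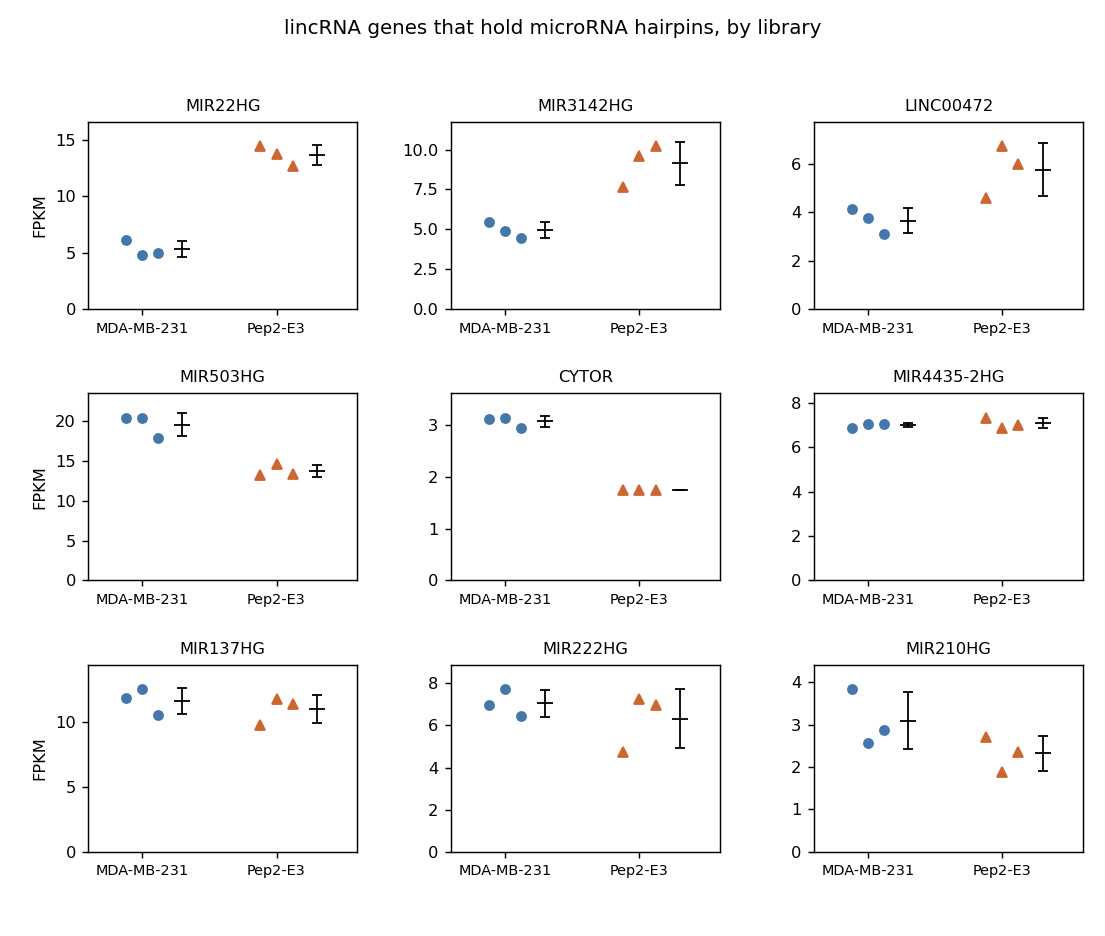
FPKM in each library of 9 lincRNA genes that hold microRNA hairpins (circles, MDA-MB-231; triangles, Pep2-E3, in order of replicate number), with the mean and SD of 3 libraries. MIR22HG, MIR3142HG and LINC00472 lie higher in all Pep2-E3 libraries, MIR503HG and CYTOR lower, and the remaining 4 overlap.

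Of 14 tested genes of the microRNA machinery, 3 rose and 4 fell, where 14.6% and 16.2% of all tested genes did. AGO2, the slicing Argonaute, fell from 16.8 ± 0.907 to 10.7 ± 0.537 FPKM (log2 fold change -0.60 ± 0.06, limma adjusted p = 0.00133). AGO4 fell from 3.23 ± 0.168 to 2.21 ± 0.215 FPKM and DICER1, the enzyme that cuts hairpins to mature length, from 8.27 ± 0.850 to 5.87 ± 0.783 FPKM (limma adjusted p = 0.00988 and 0.0227). TARBP2, a Dicer cofactor, rose from 4.86 ± 0.128 to 6.18 ± 0.568 FPKM (limma adjusted p = 0.0236). The other 3 that passed, named after their values were seen, were DROSHA, which fell, and DGCR8 and RAN, which rose.

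For the other protein lists, too, the shares of all tested genes were 14.6% higher and 16.2% lower, and nothing particular to a list is read from its count. Of 22 tested genes of the nuclear RNA exosome and its adaptors, which degrade many noncoding transcripts, 4 rose and 2 fell. MPHOSPH6 rose from 13.8 ± 1.10 to 19.3 ± 1.98 FPKM, SRRT from 33.4 ± 0.588 to 43.3 ± 3.55 FPKM and ZC3H18 from 12.6 ± 0.214 to 15.7 ± 0.900 FPKM, while EXOSC7 fell from 9.32 ± 0.384 to 7.24 ± 0.0938 FPKM. Among 12 genes of m6A RNA methylation, 1 rose and 2 fell, namely RBM15B (log2 fold change 0.28 ± 0.07), RBM15 (-0.43 ± 0.06) and VIRMA (-0.28 ± 0.05). Among 11 subunits of PRC2, a histone methyltransferase that some lincRNAs bind, the catalytic EZH2 rose from 34.8 ± 1.65 to 41.2 ± 2.02 FPKM, whereas the alternative catalytic subunit EZH1 and the histone-binding RBBP4 and RBBP7 fell by 0.30, 0.32 and 0.20 on the log2 scale. Over these lists and those of the paraspeckle, NORAD and microRNA proteins, 27 of 83 tested genes passed, where 30.8% of all tested genes did. With the replicate number as a block 16 of the 83 passed, where 2966 of all 14235 tested genes did. Leaving out 1 library gave 14 to 33 of the 83, and 2471 to 4866 of all 14235.

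Lists of lincRNAs by known role were small, and nothing particular to a role is read from their counts. Among all tested genes, 14.6% rose and 16.2% fell. Of 9 members linked to breast cancer growth and spread, NEAT1 and LINC01139 (a member through Pep2-E3 alone) rose, CYTOR and PVT1 fell, and NORAD, MALAT1, MIR4435-2HG, LINC01116 and EPB41L4A-AS1 did not pass. LINC01116 measured 16.1 ± 0.382 and 15.4 ± 0.860 FPKM. EPB41L4A-AS1 measured 3.99 ± 0.385 and 4.44 ± 0.377 FPKM, and 49.6% of its exon bases lie opposite EPB41L4A. PVT1, the neighbour of MYC on chromosome 8, measured 3.01, 3.39 and 3.15 FPKM against 2.40, 1.69 and 1.92 FPKM (log2 fold change -0.48 ± 0.10, limma adjusted p = 0.0128). MYC fell from 97.3 ± 3.60 to 83.1 ± 7.11 FPKM (limma adjusted p = 0.0444). PVT1 missed the threshold without MDA-MB-231 replicate 2 (limma adjusted p = 0.0541).

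Of the remaining lists, hypoxia and antioxidant-linked lincRNAs had 3 members, of which NEAT1 passed. NF-kB and interferon-linked lincRNAs had 4, of which MIR3142HG and MIR22HG rose and CYTOR fell. The share of all tested genes that passed was 30.8%. The list of p53-linked lincRNAs had NEAT1 as its 1 member. No lincRNA of the list of X inactivation and imprinting reached a mean of 1 FPKM.

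Short motifs were counted in promoter windows. RefSeq gave a window of 300 bases, 250 before and 50 after the annotated start, for 116 members, of which 19 rose, 16 fell and 81 did not pass. The windows of MIR3142HG, MANCR, CYTOR and MIR22HG are shown because they hold motif matches on the genes described above, in capitals. Their places on GRCh38 are chr5:160468001-160468300 (plus strand), chr10:4678021-4678320 (minus), chr2:87455177-87455476 (plus) and chr17:1716161-1716460 (minus); the starts that RefSeq gives for MIR3142HG and MIR22HG lie inside the longer GENCODE genes. In MIR3142HG the capitals mark the NF-kB motif of 10 bases (GGG, any 2 bases, TTTCC), in MANCR and CYTOR the AP-1 motif TGANTCA and CCAAT, and in MIR22HG the GC box GGGCGG and CCAAT, on either strand.
MIR3142HG: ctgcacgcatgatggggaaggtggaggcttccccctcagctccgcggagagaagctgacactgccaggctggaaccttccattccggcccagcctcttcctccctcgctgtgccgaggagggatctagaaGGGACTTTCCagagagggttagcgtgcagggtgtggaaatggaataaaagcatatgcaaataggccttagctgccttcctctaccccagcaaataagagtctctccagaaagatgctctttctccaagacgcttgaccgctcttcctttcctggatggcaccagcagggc
MANCR: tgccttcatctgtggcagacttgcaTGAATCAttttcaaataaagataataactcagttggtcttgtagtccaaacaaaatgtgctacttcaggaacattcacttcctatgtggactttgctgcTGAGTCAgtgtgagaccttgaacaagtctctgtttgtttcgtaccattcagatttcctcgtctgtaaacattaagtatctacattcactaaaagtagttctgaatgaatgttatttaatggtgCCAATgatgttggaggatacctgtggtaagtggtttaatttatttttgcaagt
CYTOR: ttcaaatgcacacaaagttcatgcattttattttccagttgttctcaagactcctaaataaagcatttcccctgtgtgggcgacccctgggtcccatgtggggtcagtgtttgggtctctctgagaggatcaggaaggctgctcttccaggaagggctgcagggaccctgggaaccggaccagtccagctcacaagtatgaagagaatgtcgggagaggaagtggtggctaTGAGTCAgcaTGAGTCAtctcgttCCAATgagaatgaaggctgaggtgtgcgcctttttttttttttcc
MIR22HG: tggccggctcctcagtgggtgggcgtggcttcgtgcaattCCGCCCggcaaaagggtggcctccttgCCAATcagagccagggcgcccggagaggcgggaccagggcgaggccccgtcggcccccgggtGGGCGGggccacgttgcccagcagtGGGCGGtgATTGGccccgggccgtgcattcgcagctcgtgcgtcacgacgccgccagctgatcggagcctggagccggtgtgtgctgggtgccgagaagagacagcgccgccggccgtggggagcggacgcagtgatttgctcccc

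The AP-1 motif was in 3 of the 16 windows of members that fell, those of MANCR, CYTOR and LINC01615, each with 2 matches, and in 0 of the 19 windows of members that rose. It was in 7 of 81 windows of members that did not pass and in 7.71% of 35116 RefSeq promoter windows. The GC box was in 10 of 19 rising, 3 of 16 falling and 54 of 81 other windows, against 45% of all, and CCAAT in 10, 8 and 29, against 34.6% of all. The NF-kB motif was in 1 of 19 rising windows, that of MIR3142HG, where it starts at base 131, and in no falling window. It was also in 1 of 81 windows of members that did not pass, and in 1.91% of all. LINC01615, named here for its motif after its values were seen, fell from 3.82 ± 0.313 to 2.41 ± 0.119 FPKM (limma adjusted p = 0.00383). These matches describe letters in the windows, and binding was not measured.

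The position of a member relative to protein-coding genes was also described. LincRNA genes whose start lies within 2 kb of a coding gene's start, in the opposite direction, numbered 60, of which 12 rose and 1 fell, against 14.6% and 16.2% of all tested genes. Across the alternative fits 7 to 14 rose and 0 to 4 fell. Of the 59 tested coding genes beside them, 9 rose and 10 fell. Both genes passed in 5 such pairs, in the same direction in 2. In the other 3 the lincRNA rose while the coding gene fell. These were APTR beside RSBN1L, CENATAC-DT beside CENATAC, a gene of minor intron splicing, and EMSY-DT beside EMSY, which codes for a BRCA2-binding protein. CENATAC-DT measured 1.17, 1.39 and 1.21 FPKM against 2.21, 2.15 and 2.13 FPKM, while CENATAC fell from 14.1 ± 0.684 to 11.4 ± 0.472 FPKM (limma adjusted p = 0.00414 and 0.0132). The 1 member of this position that fell was CKAP2-DT, a member through the parental line alone, and these pairs were named after their values were seen.

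Members that overlap a coding gene on the same strand, 16 in all, included 1 that rose and 7 that fell, where 14.6% and 16.2% of all tested genes did, and in the alternative fits 1 rose and 5 to 7 fell. Of the 13 tested coding genes over them, 1 rose and 5 fell. TTLL11-IT1, inside the tubulin-modifying enzyme gene TTLL11, measured 2.67, 2.40 and 1.95 FPKM against 0.775, 1.21 and 0.554 FPKM, and TTLL11 fell from 6.93 ± 0.353 to 3.07 ± 0.323 FPKM (limma adjusted p = 0.00696 and 0.000596). Reads from unspliced RNA of the coding gene would count for such a member, and their part in the result was not tested. The 30 members that overlap a coding gene on the opposite strand had 3 that rose and 4 that fell, against the same 14.6% and 16.2%. In 5 of these both genes passed, in the same direction each time, among them MAPKAPK5-AS1, of which 34.6% of the exon bases lie opposite MAPKAPK5. MAPKAPK5-AS1 fell from 13.6 ± 0.407 to 9.96 ± 0.445 FPKM and MAPKAPK5, a stress-activated kinase, from 4.46 ± 0.0859 to 2.98 ± 0.195 FPKM (limma adjusted p = 0.00270 and 0.00308). TTLL11-IT1, at a Pep2-E3 mean of 0.846 FPKM, is a member through the parental line alone and had to differ. TTLL11-IT1 and MAPKAPK5-AS1 were named after their values were seen.

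The 22 members within 5 kb downstream of a coding gene on its strand had 7 that rose and 3 that fell, where 14.6% and 16.2% of all tested genes did. Of the 17 tested coding genes before them, 8 rose and 1 fell. AC005479.1 and AC005479.2 lie behind NPC2, a cholesterol-binding protein of the lysosome, and rose by 0.61 ± 0.13 and 0.56 ± 0.16 on the log2 scale, while NPC2 rose from 35.1 ± 1.45 to 68.5 ± 2.76 FPKM (limma adjusted p = 0.000217); this pair was named after its values were seen. AC005479.1, at a parental mean of 0.978 FPKM, is a member through Pep2-E3 alone. Behind MYEOV, in contrast, AP005233.2 fell from 25.5, 25.7 and 27.0 FPKM to 19.4, 19.9 and 17.9 FPKM, while MYEOV rose from 59.1 ± 2.49 to 77.9 ± 3.40 FPKM (limma adjusted p = 0.00271 and 0.00302). Transcripts that run past the end of a coding gene would count for such a member, and their part was not tested.

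Over all 240 members whose nearest or overlapping coding gene was tested, the log2 fold changes of both had a Pearson r of 0.28 and a Spearman rho of 0.26. For overlaps on opposite strands r was 0.59 (24 pairs), for overlaps on the same strand 0.29 (13 pairs), for members downstream on the same strand 0.08 (18 pairs), for divergent starts 0.12 (59 pairs) and for members apart from coding genes 0.26 (126 pairs). These correlations are across genes of the same 6 libraries, genes are not independent replicates, and some pairs share exon bases. Both genes passed in 38 pairs, in the same direction in 28, where 30.8% of all tested genes passed singly. Of 34 pairs of members within 50 kb of each other, both passed in 4, in the same direction each time. These were MANCR with LINC00705, which share exon bases, AC005180.2 with AC005180.1, AC091182.2 with LINC01605, and AC005479.2 with AC005479.1. The share among all gene pairs was not computed, so nothing is read from either count of pairs.

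**Figure D5:**
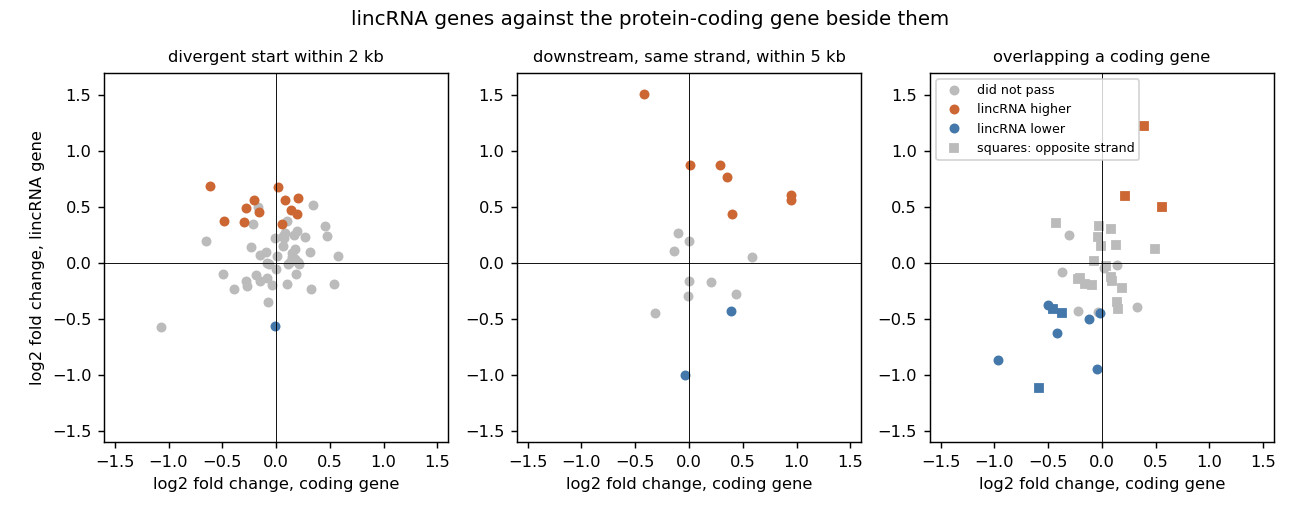
log2 fold change of lincRNA genes (y axis) against that of the coding gene beside or over them (x axis), on log2(FPKM + 1), for 3 kinds of position, in pairs whose coding gene was tested. In the left panel the coloured points, lincRNA genes that passed, are 12 above 0 and 1 below, on either side of 0 for the coding gene; in the right panel the coloured points lie where both values have the same sign.

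Annotation limits what some members are. RefSeq lists 143 members as lncRNA, 2 as protein-coding and 2 as transcribed pseudogenes, and 152 were not matched by name or identifier. There were 32 members that share at least 10% of their exon bases with another gene, 26 of them with a gene on the opposite strand, and 9 of the 32 passed. A further measure, 50-base words shared with other genes, reached 20% in 35 members, of which 8 passed. Of all tested genes 30.8% passed.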

How the data were processed

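RNA sequencing libraries, 3 of MDA-MB-231 and 3 of Pep2-E3, were grouped by their titles. The authors deposited 1 table of FPKM values per library. The tools, per the submitters' processing notes, were HTSeq 0.6.0, Bowtie2 2.2.3 and HISAT2 2; the same notes name the mouse build mm8, whereas all 30099 identifiers are human and in GENCODE release 29 (GRCh38), whose coordinates and exon lengths are used here. With those lengths and the library totals, 100% of 180594 values gave whole fragments within 0.001, and these fragments, 17154511 to 18206694 per library, are the depth quoted. Such numbers cover counting error only.

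The test was limma-trend (limma 3.58.1, R 4.3.3) on log2(FPKM + 1), which understates changes of low genes, fitted on the group alone, for 14235 genes with a mean of at least 0.5 FPKM, adjusted by Benjamini-Hochberg at 0.05. The design was written for FPKM and was used as written. The test was run on simulated data with the scatter of the parental libraries in both groups. The wider scatter of Pep2-E3 replicate 1 was not covered. Python 3.11.15, pandas 2.3.3, numpy 2.4.6 and matplotlib 3.10.9 made the tables and plots. Folds are ratios of mean FPKM. SD is over 3 libraries.

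Of the lincRNA genes, 9 were left out by name; LINC02001 was among them, since its current symbol is SNHG30. Exon overlap was measured on both strands, and sequence sharing as 50-base words of the longest transcript found in transcripts of other genes. Sequences came from RefSeq (GRCh38.p14) and, for NORAD, from GENCODE transcripts.

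Genes were named by a rule: the 12 largest and 12 smallest changes among members that passed without overlap, the 10 of highest level, list members, those next to the limit of 1 FPKM, up to 4 called genes of each partner list, and nearest coding genes. The members, lists and rule were chosen with earlier results of these data known. Members outside the rule are marked as named after their values were seen.

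Alternatives changed the pseudocount, the filter, the scaling, the test (limma-voom on recovered fragments), GC and length correction, the replicate block, membership, overlap and chromosomes, and left out each library. Same-numbered libraries did not deviate together (r of -0.04, 0.04 and -0.06), so the numbers were not taken as pairs. Some genes of the marker and protein lists are not reported here.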

Additional observations from a re-analysis of the deposited data

How the results depend on the processing

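The number of members that passed was 90 of 299. It ranged from 63 without a filter to 101 with GC and length correction over the alternative fits of all 6 libraries, and from 67 to 100 when 1 library was left out. Among all tested genes, 3415 of 30099 passed without a filter and 5360 of 14235 with GC and length correction. When 1 library was left out, 2471 to 4866 of 14235 did. Of the 90, 63 to 90 passed in each alternative fit, and all 90 kept their direction. With the replicate number as a block 81 members passed, 37 higher and 44 lower, where 2966 of 14235 tested genes did. Under the block the member share was thus above the share of all tested genes, unlike in the main fit, and the cause was not tested. The genes of the partner lists that passed went from 27 to 16 with that block, and to 14 to 33 when 1 library was left out. No gene named by the rule among the members lost its call under the block.

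The median log2 fold change of the members, -0.03, became -0.0427 where 0.1 was added to FPKM in place of 1, -0.0073 where 5 was added, 0.0011 with upper-quartile factors, -0.0496 for members with a mean of at least 2 FPKM and -0.0098 for those with at least 50 fragments, a limit chosen after seeing the data. Leaving out 1 library gave -0.0517 to -0.0046.

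Of 46 named members, 32 passed, and 29 of these passed in every alternative. The 3 others were AL121718.1, AC002401.4 and PVT1; without a filter the first of these had a limma adjusted p of 0.0604 and AC002401.4 one just above the threshold. LINC01089 passed with GC and length correction. The direction turned, below the threshold each time, for AC093227.1 with that correction (0.0125), for MIR4435-2HG (-0.0087) and MIR222HG (0.0160) without Pep2-E3 replicate 1, and for LINC00973 (-0.0070) without Pep2-E3 replicate 2. Leaving out 1 library gave -0.0087 to 0.0318 for MIR4435-2HG, -0.249 to 0.0160 for MIR222HG and -0.0070 to 0.0777 for LINC00973. Of the members, 78 had under 20 fragments per library, and fewer calls were made among those with the fewest. Whether depth limits those calls was not tested. Over all tested genes, the count of 4383 fell to 2966 with the block and to between 2471 and 2984 without any single parental library or Pep2-E3 replicate 2. The causes were not tested.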
